A study of Mus musculus with 2 samples.

Results

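Oligodendrocyte precursors are the dividing glial cells that give rise to myelinating oligodendrocytes. The 9 genes described here are expressed at their early stage, and several also at later stages or in other cells. These are the surface and matrix genes Pdgfra, Cspg4, Vcan, Lhfpl3, Cspg5 and Ptprz1, and the lineage transcription factors Olig1, Olig2 and Sox10. They were taken by symbol from the 22296 genes that the platform annotation names on an exon-level mouse array, and they held 182 of the 318760 probe sets with 1 gene symbol. A probe set is a small group of probes for 1 stretch of a transcript, so each gene was read several times, from 4 probe sets for Lhfpl3 to 49 for Ptprz1.

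The RNA came from hypothalamic neurons expressing Agouti-related peptide (AgRP neurons, which also make neuropeptide Y and promote feeding) that were collected by FACS. One array held cells of FoxO1 KO mice and the other cells of FoxO1 heterozygous KO mice, so both carried at least 1 disrupted FoxO1 allele and no wild type is analysed here. Both were of mixed genetic background and from age- and sex-matched littermates fed freely. The sources used here state neither the ages, nor how many mice gave each sample, nor which promoter drove the deletion or the sorting marker. FoxO1 is a forkhead transcription factor that leaves the nucleus when insulin acts on the cell.

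With 1 array per genotype there was no replicate and no test. Values are log2 signals, and differences are KO minus heterozygous KO. A gene's level on an array, and its difference, are medians over its probe sets whose mean over both arrays reached a floor of 5.86, the median of that mean over the whole array. The SD beside a difference is over probe sets and is not a spread between mice. A gene was called 2-fold lower or higher where its difference reached -1 or 1 and 75% or more of its probe sets shared that direction. Foxo1 was at 7.46 on the KO array, against 7.98 on the heterozygous array (difference -0.48, 8 of 8 probe sets lower), which did not pass that rule. Agrp was at 12.4 in KO and 12.0 in heterozygous KO cells (difference 0.27). Npy was at 12.2 in KO and 12.3 in heterozygous KO cells. Its difference was 0.14, because levels and differences are medians taken separately. Both peptides that define the sorted cells were thus bright on each array.

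Precursors depend on platelet-derived growth factor, which neurons and astrocytes supply and which they sense through the receptor Pdgfra. Their surface and surroundings are rich in chondroitin sulphate proteoglycans, proteins that carry long sulphated sugar chains, and Cspg4, Vcan, Cspg5 and Ptprz1 are such proteins. Olig2 sets the lineage, Olig1 and Sox10 act with it, and Sox10 stays on in mature cells, where it switches on myelin genes. As the precursor matures it loses Pdgfra and Cspg4 and passes through a committed stage marked by Gpr17, a G protein-coupled receptor.

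Of the 9 genes, 2, Pdgfra and Lhfpl3, were called at least 2-fold lower in KO cells, also under each of the 3 other scalings tried. These were centring on the median over genes, a repeat of quantile normalisation over the probe sets with 1 symbol only, and removal of the trend on signal. All 9 lay below 0, while Cspg5 lay above 0 under all 3 other scalings and Sox10 under 2 of them. Over all 16639 evaluated genes, 1.12% were called lower and 65.2% lay below 0, so 9 of 9 below 0 is read against that share, and the median difference of the 9 was -0.51, against -0.11 over all genes. Centring on that median puts the median over all genes at 0, so the share of 65.2% does not apply there. With differences so centred, 7 of 9 lay below 0 and the median of the 9 was -0.40. In all, 127 genes were then called lower and 270 higher, against 186 and 188 as deposited. At a 1.5-fold rule with the same demand for agreement, Vcan and Ptprz1 joined, which made 4 of 9 against 4.9% of all genes. Members of other lists passed that rule too, as given below. Under each of the 3 other scalings neither reached 1.5-fold (Vcan between -0.56 and -0.52, Ptprz1 between -0.53 and -0.50), which left 2 of 9 against 2.84% to 3.28% of all genes, and Vcan missed it also over probe sets that reached the floor on both arrays (-0.48). None of the 9 was called higher, against 1.13% of all genes. Of the 9 genes' 148 probe sets above the floor, 116 (78.4%) were lower on the KO array, against 57.4% of all such probe sets with 1 symbol. All 9 genes passed the floor with at least 3 probe sets. With no floor, all 182 probe sets counted, 143 (78.6%) were lower, against 56.2% of all with 1 symbol. Pdgfra and Lhfpl3 were again the 2 called, against 0.624% of genes, and the median was -0.52. In sorted bulk RNA, fewer cells of a type and less RNA per cell cannot be told apart.

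**Figure D1:**
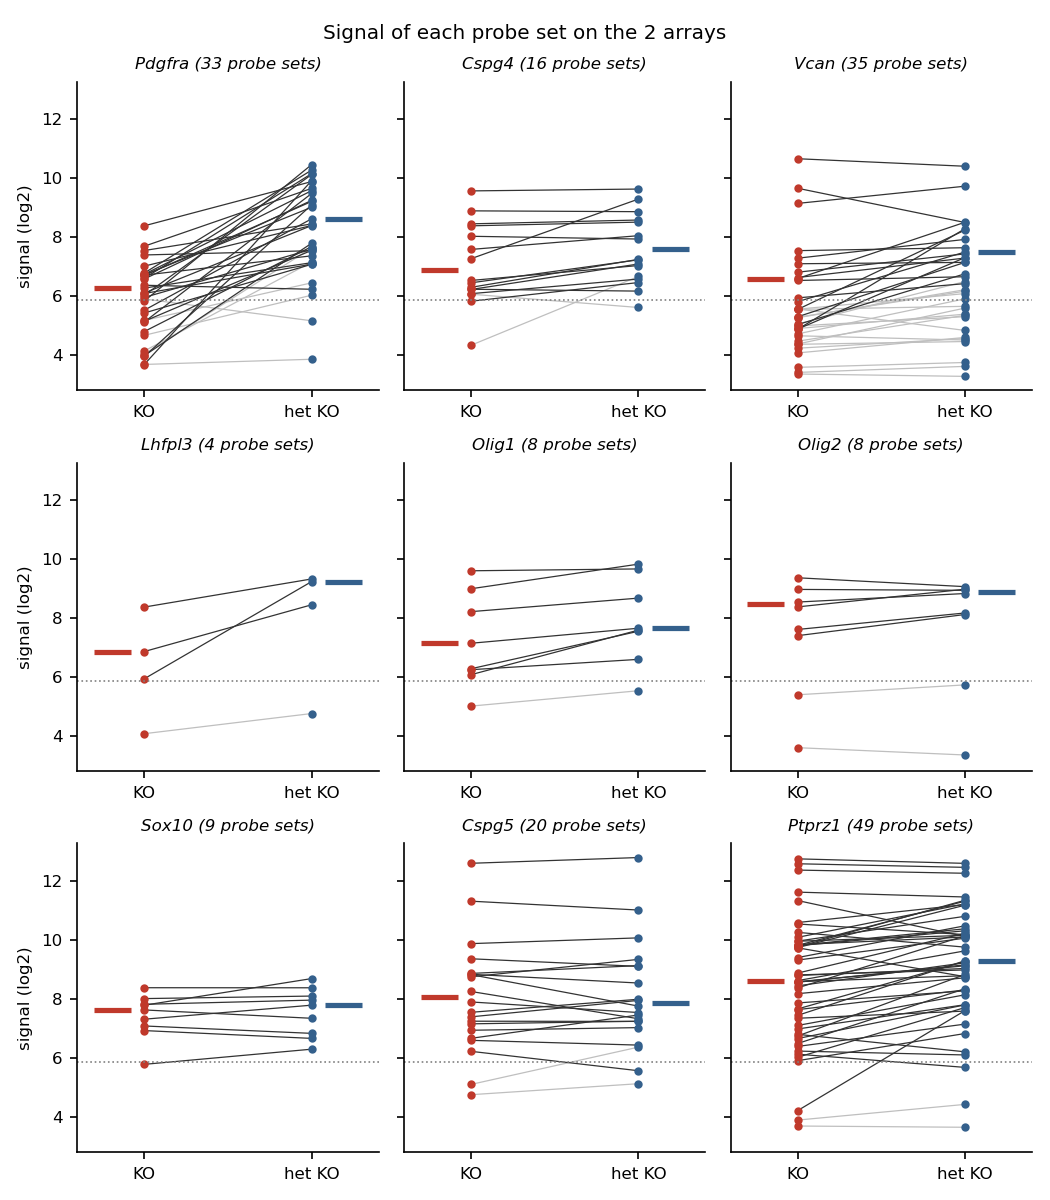
Log2 signal of each probe set of the 9 genes on the KO array (red, left) and the heterozygous KO array (blue, right), joined by a line (black where the probe set was above the floor, grey where under it); thick bars are the gene levels and the dotted line is the floor of 5.86. Nearly every Pdgfra line climbs towards the heterozygous array, with levels of 6.27 in KO and 8.63 in heterozygous cells, while the lines of Sox10 and Cspg5 run both ways.

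The promoters of the 2 genes called lower are shown because both genes differed in a comparison of FoxO1 genotypes. Each runs from 250 bases before to 50 bases after a RefSeq transcription start (GRCm38.p6, plus strand), at chr5:75152001-75152300 for Pdgfra and chr5:22745804-22746103 for Lhfpl3. Capitals mark the matches to CATCTG and CAGCTG, which are forms of the E-box (CANNTG), the hexamer that basic helix-loop-helix factors such as Olig1 and Olig2 bind; an E-box of another form stays in lower case.
Pdgfra: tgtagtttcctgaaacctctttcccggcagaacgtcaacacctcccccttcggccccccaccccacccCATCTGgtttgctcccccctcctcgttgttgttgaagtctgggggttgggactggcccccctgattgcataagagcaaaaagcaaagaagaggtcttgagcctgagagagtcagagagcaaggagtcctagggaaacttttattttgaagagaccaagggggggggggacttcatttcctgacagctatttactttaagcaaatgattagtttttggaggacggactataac
Lhfpl3: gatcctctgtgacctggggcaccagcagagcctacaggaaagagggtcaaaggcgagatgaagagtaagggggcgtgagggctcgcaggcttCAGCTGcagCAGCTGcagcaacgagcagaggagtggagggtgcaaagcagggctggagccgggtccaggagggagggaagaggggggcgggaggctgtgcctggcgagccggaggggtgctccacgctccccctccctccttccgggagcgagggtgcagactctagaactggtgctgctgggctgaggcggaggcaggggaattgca
These 4 motifs were searched on both strands, and no match overlapped another: GTAAACA, a FoxO element, CAGCTG and CATCTG, both E-boxes, and ACAAAG, a SOX element. Promoters were found for 6 of the 9 genes (Pdgfra, Lhfpl3, Cspg4, Vcan, Ptprz1 and Olig2). Pdgfra held 1 CATCTG, which stands in 17.2% of all 32851 promoters of that length in the table. Lhfpl3 held 2 CAGCTG, a motif present in 16.3% of them. The other 4 promoters held none of these 4 motifs, and GTAAACA and ACAAAG, present in 3.65% and 18.7% of all promoters, were in none of the 6. For any form of CANNTG, a search added after the data were seen, Pdgfra held 2 matches, Lhfpl3 2 and Vcan 1, and 72.3% of all promoters held at least 1. A match is a stretch of letters and not a measured site.

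Pdgfra, the receptor tyrosine kinase through which precursors receive their main mitogen, had a level of 6.27 in KO cells, against 8.63 in heterozygous KO cells. Its difference was -2.41 (SD 1.56 over 27 probe sets), or 5.31-fold lower. Only 8 of the 16639 evaluated genes had a lower difference, and of the 2928 genes read by at least 20 probe sets Pdgfra had the lowest. Both ranks belong to the difference of -2.41 over 27 probe sets, some of them under the floor on the KO array. The rank over probe sets that reached the floor on both arrays was not taken. Of its 27 probe sets above the floor, 26 were lower, 21 of them by at least 2-fold and 16 by at least 4-fold. The exception stood at 6.37 in KO and 6.23 in heterozygous cells. Of the 27, 18 reached the floor on both arrays, and over those the difference was -1.80. The rest were under it on the KO array and passed through their heterozygous value. The counts of 2-fold and 4-fold differences include probe sets of that kind.

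The Pdgfra probe sets disagreed on size. The largest difference, -6.25, came from a probe set at 3.68 in KO and 9.92 in heterozygous cells, and the next, -5.15, from one at 3.95 in KO and 9.10 in heterozygous cells. At the other end were probe sets at 7.40 in KO and 7.54 in heterozygous cells (-0.15) and at 6.71 in KO and 7.37 in heterozygous cells (-0.66). The middle 50% of differences ran from -3.53 to -1.44. The brightest probe set stood at 8.39 in KO and 9.89 in heterozygous cells. Of all 33 probe sets, 19 reached the value of the floor on the KO array, against 31 on the heterozygous array. No detection calls came with the values, so whether the dimmest KO signals were above background is not known, and the largest sizes are uncertain for that reason. Over the 18 probe sets that reached the floor on each array separately, the difference was -1.80 and the call remained.

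Lhfpl3, a membrane protein of the LHFPL tetraspan family whose transcript is enriched in precursors, was read by 4 probe sets. They stood at 4.08, 5.94, 6.87 and 8.38 on the KO array, against 4.76, 9.25, 8.46 and 9.33 on the heterozygous array. All 4 were lower in KO cells, and above the floor the 3 differences were -3.30, -1.59 and -0.96. The gene difference was -1.59 (SD 1.21 over 3 probe sets), or 3.01-fold lower, and 48 evaluated genes had a lower one. Few probe sets carry this call, and over all 4 the difference was -1.27. Of 5 other genes of the family none was called, and they ran from Lhfpl1 at -0.54 to Lhfpl5 (under its older symbol Tmhs) at 0.52, with a median of -0.40.

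**Figure D2:**
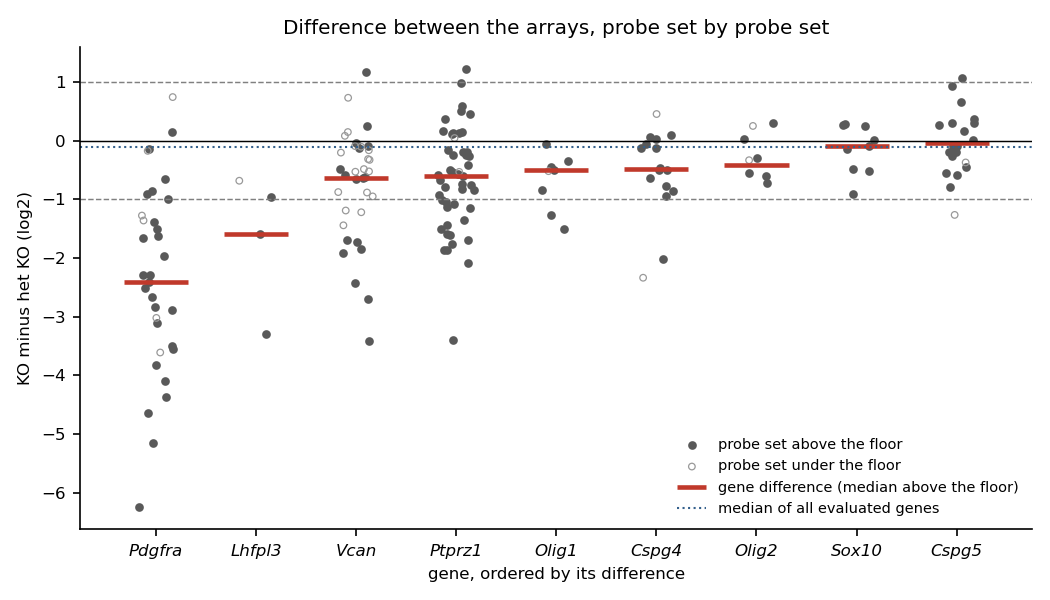
KO minus heterozygous KO difference (log2) of each probe set, by gene in order of the gene difference (red bars); filled points are above the floor and open ones under it, dashed lines mark 2-fold and the dotted line the median of all evaluated genes. Pdgfra at -2.41 and Lhfpl3 at -1.59 stand apart from the other 7 genes, which lie between -0.64 for Vcan and -0.04 for Cspg5.

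The other ligands and receptor of the PDGF system did not pass the rule. The second receptor, Pdgfrb, which marks pericytes, was at 6.70 in KO and 7.09 in heterozygous cells, with a difference of -0.42. The ligand Pdgfa, which acts on Pdgfra, was at 7.77 in KO and 7.91 in heterozygous cells (-0.41, SD 0.75, 9 of 14 probe sets lower). Pdgfb had the lowest difference of the 5 at -0.44 and Pdgfd the highest at 0.70, and 4 of 5 were below 0, against 65.2% of all genes. Pdgfd had an SD of 2.19 over 7 probe sets and turned to -1.07 over probe sets that reached the floor on both arrays, so its direction is unsettled.

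Vcan encodes versican, a large matrix proteoglycan. Its level was 6.60 in KO cells, against 7.50 in heterozygous KO cells, and its difference was -0.64 (SD 1.20 over 17 probe sets, 15 lower). Many of its readings were dim: 18 of 35 probe sets lay under the floor, with a median difference of -0.41. Between the floor and the 75th percentile of signal (7.37), all 11 were lower, with a median of -1.69, led by a probe set at 4.87 in KO and 8.29 in heterozygous cells (-3.42). However, 6 of the 11 were under the floor on the KO array and passed through their heterozygous value, and the other 5 had a median of -0.48. The 6 brighter ones had a median of -0.34, and 2 of them were higher in KO cells, at 9.66 against 8.50 (1.16) and at 10.7 against 10.4 (0.26). Vcan thus had probe sets past 2-fold in both directions, 7 lower and 1 higher, and it passed the rule at -1.03 when its probe sets were averaged in place of taking their median. Over its probe sets that reached the floor on both arrays separately, the difference of Vcan was -0.48. Versican is made in several splice forms, and which exon each probe set reads is not known here.

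Ptprz1, a receptor tyrosine phosphatase that also carries chondroitin sulphate chains and binds pleiotrophin, had the most probe sets. Its level was 8.63 in KO cells and 9.29 in heterozygous KO cells, a difference of -0.61 (SD 0.88, 47 probe sets). Of the 47, 36 were lower, 16 of them by at least 2-fold, and 1 was higher by at least 2-fold, at 11.4 in KO and 10.1 in heterozygous cells. The lowest was at 4.22 in KO and 7.61 in heterozygous cells (-3.40), so it passed the floor through its heterozygous value. The next was at 6.75 in KO and 8.84 in heterozygous cells (-2.09). The 4 brightest probe sets did not follow the rest. They were all slightly higher in KO cells, by 0.11 to 0.16, the top one at 12.8 in KO and 12.6 in heterozygous cells. Differences at such signals are small on these arrays in general, as the grey band in the plot of difference against signal shows.

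**Figure D3:**
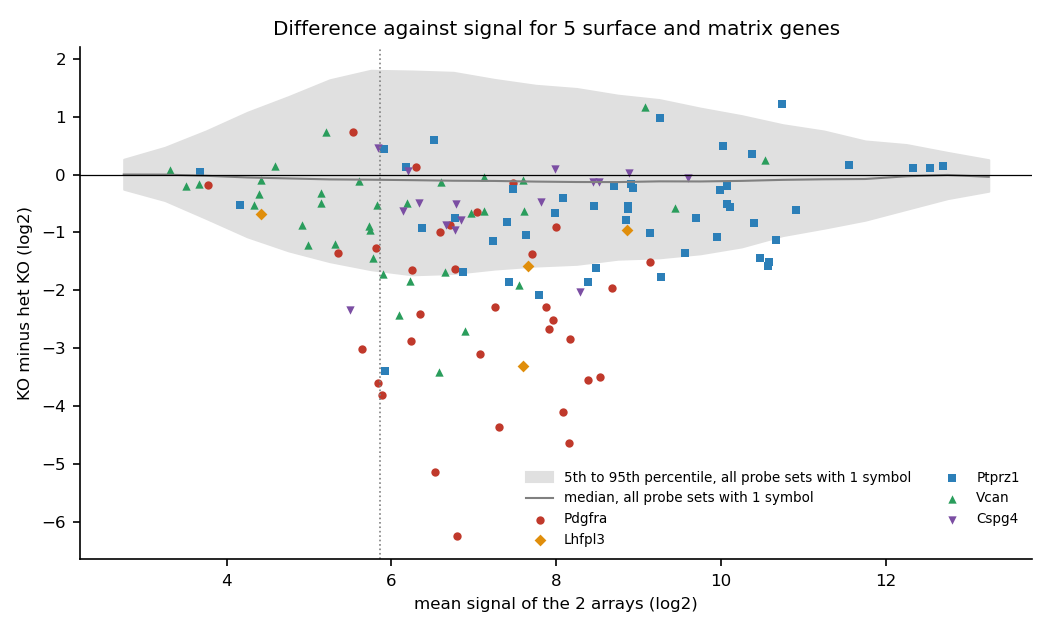
Difference (KO minus heterozygous KO, log2) against mean signal of the 2 arrays (log2) for each probe set of 5 surface and matrix genes, over the 5th to 95th percentile (grey band) and median (grey line) of all probe sets with 1 symbol in signal steps of 0.5; the dotted line is the floor. Of the Pdgfra probe sets, 20 of 33 lie under the band and none above it, while the Cspg4 points lie mostly inside it.

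Cspg4 encodes NG2, the proteoglycan by which precursors are often stained and which pericytes make too. Its level was 6.90 in KO cells, against 7.59 in heterozygous KO cells, and its difference was -0.48 (SD 0.57 over 14 probe sets, 11 lower). A single probe set above the floor differed by more than 2-fold, at 7.27 in KO and 9.29 in heterozygous cells (-2.02). The 4 brightest ran from -0.13 to 0.03, the top one at 9.57 in KO and 9.64 in heterozygous cells. Cspg4 at -0.48 and Pdgfra at -2.41 are commonly used to mark the same cells.

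Cspg5, or neuroglycan C, is a membrane proteoglycan of neurons as well as precursors. Its level was 8.09 in KO cells and 7.86 in heterozygous KO cells, although its difference was -0.04 (SD 0.51), because levels and differences are medians taken separately. Of 18 probe sets 9 were lower and 9 higher, from -0.79 to 1.07, and the brightest stood at 12.6 in KO and 12.8 in heterozygous cells. The sign of Cspg5 is not settled: it stood at 0.07 once differences were centred on the median over genes.

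The transcription factors differed by less than Pdgfra and Lhfpl3, and none of the 3 passed the rule. Olig1 had a level of 7.15 in KO cells, against 7.66 in heterozygous KO cells, and its difference was -0.51 (SD 0.52, 7 probe sets). Each of its 8 probe sets, the dim one included, was lower, from 6.08 in KO and 7.60 in heterozygous cells (-1.51) to 9.61 in KO and 9.67 in heterozygous cells (-0.06). Olig1 was the 1 gene besides Lhfpl3 with every probe set lower. Olig2, which lies next to it on chromosome 16 with 1 gene model between them, was at 8.47 in KO and 8.89 in heterozygous cells, with a difference of -0.42 (SD 0.40). Of 6 probe sets above the floor 4 were lower, down to -0.72 at 7.41 in KO and 8.13 in heterozygous cells, and the brightest was higher, at 9.37 in KO and 9.07 in heterozygous cells (0.30).

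Sox10, an SRY-box factor of the whole oligodendrocyte lineage, had a level of 7.64 in KO cells, against 7.80 in heterozygous KO cells. Its difference of -0.09 (SD 0.41 over 9 probe sets) was close to the median of all genes, and 5 of 9 probe sets were lower. They ran from -0.90, at 7.80 in KO and 8.70 in heterozygous cells, to 0.28, at 7.64 in KO and 7.35 in heterozygous cells. Centred on the median over genes, Sox10 stood at 0.02. Among the other lineage factors, none of 14 evaluated was called and 13 were below 0, against 65.2% of all genes, with a median of -0.33. These ran from Tcf7l2, a Wnt effector that is raised in newly formed oligodendrocytes, at -0.76 (SD 0.92, 21 of 26 probe sets lower) to Tcf4, a widely expressed partner of helix-loop-helix factors, at 0.15.

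The size of these differences can be set against signal over all probe sets. By construction, 5% of all probe sets with 1 symbol lie under the lower edge of the band for their signal. For Pdgfra it was 20 of 33 (60.6%), for Lhfpl3 2 of 4, for Ptprz1 10 of 49 (20.4%), for Vcan 6 of 35 (17.1%) and for Cspg4 2 of 16 (12.5%). No probe set of Olig1, Olig2, Sox10 or Cspg5 lay there. Above the upper edge lay 1 probe set of Ptprz1 and none of the other 8 genes. Probe sets of 1 gene share a transcript and are not replicates.

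Of 11 evaluated genes of other proteoglycans and matrix partners, all were below 0, against 65.2% of all genes, none was called, and the median was -0.50. Under each of the 3 other scalings 9 were below 0. The 65.2% does not apply there: the median over all genes was 0 with centring, -0.031 with quantile normalisation repeated and 0.001 with the trend removed. The lowest was Tnr, or tenascin-R, a matrix protein made by oligodendrocyte lineage cells and some neurons, at 7.56 in KO and 8.89 in heterozygous cells. Its difference of -0.99 (SD 1.09, 23 of 28 probe sets lower) was just short of the rule, which it passed at -1.18 with a floor raised to the 75th percentile and at -1.07 when probe sets were averaged. Tnr was further from the rule with centring (-0.88), quantile normalisation repeated (-0.91) and the trend removed (-0.87). The same held with no floor (-0.92) and over probe sets that reached the floor on both arrays (-0.88). The highest was the heparin-binding growth factor Mdk at -0.01, which stood at 0.10 after centring.

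Among 15 further precursor genes evaluated, all were below 0, against 65.2% of all genes, and 3 were called lower, against 1.12%, with a median of -0.39. Gpr17 was at 6.40 in KO and 8.67 in heterozygous cells, a difference of -2.10 (SD 1.48, 4 of 5 probe sets lower). Over probe sets that reached the floor on both arrays Gpr17 was at -1.32 and kept its call, and with the raised floor too few of its probe sets were left to evaluate it. Bcas1, a marker of newly forming oligodendrocytes, was at 6.95 in KO and 8.39 in heterozygous cells (-1.91, SD 1.76, 9 of 12 lower). Enpp6, a choline phosphodiesterase of the same stage, was at 6.26 in KO and 7.54 in heterozygous cells (-1.78, SD 0.65, 7 of 7 lower). Like Gpr17, Enpp6 could not be evaluated with the raised floor. Bcas1 lost its call with the raised floor (-1.51) and over probe sets that reached the floor on both arrays (-1.08), since under 75% of its probe sets were then lower. The other 12 genes of this list were not called, and they ran from the Src-family kinase Fyn at -0.87 to the xylosyltransferase Xylt1 at -0.17.

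Of 12 mature oligodendrocyte markers evaluated, 7 were called lower in KO cells, against 1.12% of all genes (5 with centring, 6 under the 2 other scalings). Mog, Cldn11, Aspa, Opalin and Ermn were not called, with differences between -0.86 and -0.42. All 12 were below 0, against 65.2% of all genes, with a median of -1.07 and a mean level of 7.18 in KO and 8.44 in heterozygous cells. For the 9 early genes the mean level was 7.40 in KO and 8.27 in heterozygous cells. Of the 7, Ugt8a, the enzyme of galactolipid synthesis, was lowest at -2.98 (-2.20 with no floor), followed by the myelin genes Mag at -2.12 and Cnp at -2.10 and the iron carrier Trf at -1.52.

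Several of the 9 genes are also made by other cells of the hypothalamus, and the markers of those cells are given for that reason. Their counts below 0 are read against 65.2% of all genes. Ptprz1, Vcan and Cspg5 are expressed by astrocytes or tanycytes. The 10 astrocyte markers had a median of -0.20 (7 below 0), a mean level of 7.59 in KO and 7.60 in heterozygous cells, and ran from Gfap at 0.66 to Slc1a3 at -0.73. The 8 tanycyte and ependymal markers had a median of -0.21 (6 below 0), a mean level of 7.66 in KO and 7.78 in heterozygous cells, and ran from Tmem212 (under an older symbol) at 0.53 to Vim at -0.46. Pericytes make Cspg4: the 8 mural markers had a median of -0.32 (7 below 0), a mean level of 6.65 in KO and 7.14 in heterozygous cells, and ran from Acta2 at 0.26 to Vtn at -0.67. Fibroblasts of the brain's coverings make Pdgfra. Their 7 evaluated markers had a median of -0.24 (6 below 0), a mean level of 7.32 in KO and 7.55 in heterozygous cells, and ran from Slc6a13 at 0.17 to Dcn at -0.70. No marker of these 4 lists was called, also under the alternatives that kept the 2-fold rule.

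Lists of further cells held no called marker in the setting reported. In other settings the synaptic vesicle gene Syt1 passed the rule, at -1.49 with the raised floor and -1.16 over probe sets that reached the floor on both arrays, and so did the endothelial cadherin Cdh5, at -1.16 when probe sets were averaged. The median was -0.07 over 8 microglial markers (0.04 with centring; from Aif1 at 0.50 to Trem2 at -0.30), with mean levels of 7.23 in KO and 7.36 in heterozygous cells. Over 5 endothelial markers it was -0.18 (from Pecam1 at -0.05 to Cdh5 at -0.77), with mean levels of 6.67 in KO and 7.24 in heterozygous cells. Over 6 pan-neuronal markers it was -0.23 (from Elavl4 at 0.13 to Syt1 at -0.97), with mean levels of 8.97 in KO and 9.38 in heterozygous cells. Over 8 markers of AgRP neurons it was 0.14 (from Mc3r at 0.52 to Ghsr at -0.60), with mean levels of 9.73 in KO and 9.57 in heterozygous cells. At the 1.5-fold rule, passed by 4.9% of all genes, 9 of 12 mature, 6 of 15 further precursor and 3 of 11 proteoglycan and matrix genes were called lower. So were 2 of 6 pan-neuronal markers, and 1 each of 14 lineage factors, 8 mural, 5 endothelial and 8 AgRP neuron markers. The remaining lists had none. The part that the make-up of the 2 sorted samples has in the Pdgfra and Lhfpl3 differences was not tested.

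**Figure D4:**
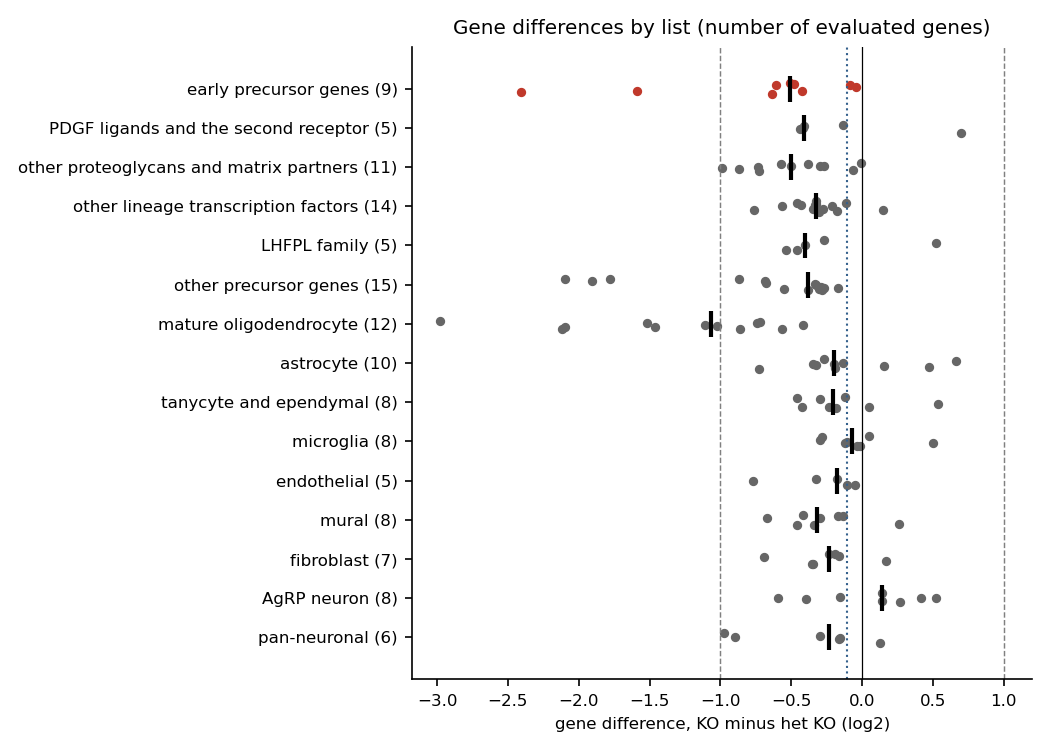
Gene differences (KO minus heterozygous KO, log2) of the 9 early precursor genes (red) and of 14 other lists (grey), with black bars at the list medians, dashed lines at 2-fold and a dotted line at the median of all evaluated genes. Differences past -1.5 occur in the early precursor genes (Pdgfra, Lhfpl3), the other precursor genes and the mature oligodendrocyte genes.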

How the data were processed

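One microarray per genotype was analysed. The deposited values are 1 log2 value per probe set and array; the log2 scale was taken from the values (2.55 to 14.1 on the KO array, 2.53 to 14.1 on the heterozygous array, with medians of 5.85 on each). Per the submitters' processing notes, the authors used RMA and Partek (no versions given). RMA forces both arrays to nearly 1 distribution. The sources used here give neither a genome build nor exon positions of probe sets. RNA was extracted with Trizol and labelled as biotin cRNA, per the labels' protocols.

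Of 1235936 probe sets, 318760 had 1 gene symbol, 6684 had several and 910492 had none in the platform annotation. Genes with at least 3 probe sets above the floor were evaluated. Of 140 list genes, those absent under their current symbol were looked up by older symbols in RefSeq (GRCm38.p6). Named are all 9 genes, Foxo1, Agrp and Npy, and from each other list up to 4 called members, or else its highest and lowest. Pdgfa, Pdgfrb, Fyn, Xylt1, the uncalled mature markers, genes whose call changed between settings and single probe sets were chosen after their values were seen. The 9 genes and the lists were chosen with earlier results of these data known. With 1 array per genotype, no test, SE or p-value is possible, and the number of arrays limits precision. The summary was tested on shuffled probe set differences to which known changes, all larger than 2-fold, were added. That does not cover changes near the 2-fold or 1.5-fold rule. The 5th percentile band, the 4 brightest probe sets and the genes with at least 20 probe sets were chosen after seeing the data. Python 3.11.15, numpy 2.4.6, pandas 2.3.3 and matplotlib 3.10.9 were used.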

Additional observations from a re-analysis of the deposited data

How the results depend on the processing

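The count of early precursor genes called lower was 2 in the setting reported and in 9 of 12 alternatives. It was 3 with the mean over probe sets (Vcan at -1.03 joined), 1 with at least 5 probe sets per gene (Lhfpl3 was not evaluated) and 4 at the 1.5-fold rule. With that rule combined with each other alternative, which was tried after seeing the data, it was 2 under the 3 other scalings, 3 under each change of floor and with at least 5 probe sets, 4 with at least 1 probe set or with probe sets of several symbols, and 5 with the mean. Over the 10 alternatives on scaling, floor, summary and annotation, Pdgfra ran from -2.52 to -1.80 and passed in each. Lhfpl3 ran from -1.95 to -1.27 and passed in the 9 that evaluated it. The list median ran from -0.67 to -0.39 and the share of its probe sets below 0 from 73.6% to 78.6%. Cspg5 turned to 0.031 with the floor raised to the 75th percentile, 0.045 with the mean, 0.070 with centring, 0.034 with quantile normalisation repeated and 0.085 with the trend on level removed. Sox10 turned to 0.024 with centring and 0.035 with the trend removed.

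Among other named genes, Elavl4 turned to -0.0072 with no floor; Gfap (-0.029), Slc6a13 (-0.18) and Tcf4 (-0.012) with the raised floor; and Aif1 (-0.11), Gfap (-0.0047) and Pdgfd (-1.07) over probe sets with both arrays at or above the floor. Mdk turned to 0.090 with the mean, 0.10 with centring, 0.072 with quantile normalisation repeated and 0.11 with the trend removed, and Pecam1 to 0.061, 0.020 and 0.057 under the last 3. Syt1, Tnr and Cdh5 gained a call and Bcas1 lost one at the values given above. Fyn and Mog also gained a call with the raised floor, and Cldn11, Bcan and Itpr2 with the mean over probe sets. Mbp lost its call with no floor and with centring. Mal lost its call with the mean over probe sets and under the 3 other scalings. The causes were not tested. Centring adds 0.11 to every difference. Over all genes the calls were 127 lower and 270 higher with centring, 142 and 248 with quantile normalisation repeated and 129 and 267 with the trend removed, against 186 and 188 as deposited. The count of genes called lower was 126 with no floor, 113 with both arrays at or above the floor, 329 with at least 1 probe set and 815 at 1.5-fold. No paired analysis was possible because each genotype had 1 array, and no replicate could be left out.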
